A study of Rattus norvegicus with 2 samples.

Results

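The 10 genes described here encode proteins that store, carry, import, export and sense iron, or break down heme. They are Fth1, Ftl1, Ncoa4, Tf, Tfrc, Slc11a2, Slc40a1, Hmox1, Aco1 and Ireb2. They were found by symbol in the gene table of the series, which has 18049 rows, and 10 of 10 were present. The cells were wild-type rat oligodendrocyte precursor cells (OPCs), taken from the cortex of pups at postnatal day 2 to 4 by immunopanning against GalC and A2B5. One sample was electroporated with a scrambled siRNA (siSCR) and the other with an siRNA against Hsc70 (siHsc70), the constitutive HSP70 chaperone encoded by Hspa8. Both were then moved to differentiation medium, which held 60 nM T3 and lacked the growth factors PDGF-AA, bFGF and NT3, and the design text names day 2 of T3 and immature oligodendrocytes. The medium is derived from a growth medium with B-27, N2, CNTF, forskolin, insulin and trace elements, and N2 supplies transferrin, so that iron carrier protein was present in both samples whatever the cells transcribed. Each group is 1 library, and the labels do not say how many pups or cultures went into it. The groups cannot be tested against each other, and whether a difference exceeds the spread between cultures was not tested.

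Oligodendrocytes are among the iron-richest cells of the brain, because enzymes of myelin lipid synthesis and respiration need iron. Iron bound to transferrin enters through the transferrin receptor and leaves the endosome through the transporter DMT1; ferritin, a shell of heavy and light chains, stores it, and ferroportin exports it. Iron regulatory proteins bind hairpins in the messenger RNAs of these genes and set ferritin translation and the stability of the receptor transcript, so transcript levels show only part of this control. Heme oxygenase 1 opens the heme ring and frees its iron. Its gene and those of both ferritin chains and ferroportin are also known targets of NRF2, a transcription factor of the oxidative stress response that binds antioxidant response elements.

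The siRNA against Hsc70 is given in the labels as this run of 19 bases and is shown because it defines the treated library; its strand and position were not analysed.

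siHsc70: tcatgactgtcctcatcaa

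Promoter windows from RefSeq (build GRCr8, 250 bases before to 50 after a transcript start) were found for 7 of the 10 genes (all but Fth1, Ftl1 and Hmox1), with 8 windows in all. The stretch before the start of Slc40a1 (chr9:55543461-55543710, minus strand) is shown because this gene had the highest ratio of the 10. Capitals mark TATAA, the core of the box bound by TBP, at base -54 from the start, a run found on either strand in 26.2% of 33469 windows.

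Slc40a1: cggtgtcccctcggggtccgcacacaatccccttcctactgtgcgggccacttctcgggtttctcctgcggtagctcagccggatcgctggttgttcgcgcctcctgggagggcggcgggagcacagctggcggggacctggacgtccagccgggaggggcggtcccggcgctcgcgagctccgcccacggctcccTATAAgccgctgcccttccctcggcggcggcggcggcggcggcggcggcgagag

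The letters of the antioxidant response element, TGACNNNGC on either strand, occurred in 12.1% of all windows. Among the windows of the 7 genes with one, they occurred in that of Ncoa4 alone, and the window of Slc40a1 did not hold them. In a list of 22 genes of the NRF2 response 20 had a window and 7 of these held the letters. The sites of 5 of these genes are set beside that of Ncoa4, with the 9 letters in capitals, each read along its gene's strand.

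Ncoa4: agggcgggcgTGACCTGGCccggcgcctg

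Me1: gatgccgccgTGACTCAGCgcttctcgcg

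Gstp1: tccactgtgtTGACTCAGCatccggggcg

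Prdx1: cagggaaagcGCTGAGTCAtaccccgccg

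Gclm: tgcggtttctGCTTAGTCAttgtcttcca

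Txnrd1: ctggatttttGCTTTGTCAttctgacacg

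The sites begin at base -52 in Ncoa4 (chr16:7401729-7401757, plus strand), -167 in Me1 (chr8:96540393-96540421, minus strand) and -61 in Gstp1 (chr1:210769748-210769776, minus strand). They begin at base -135 in Prdx1 (chr5:135383761-135383789, plus strand), -172 in Gclm (chr2:213031953-213031981, plus strand) and -78 in Txnrd1 (chr7:22755964-22755992, minus strand). Prdx1, Gclm and Txnrd1 carry the letters on the strand opposite to the gene. In the 7 genes with a window, other letters searched on both strands were those of heat shock (TTCNNGAA or GAANNTTC, in 8.77% and 8.59% of all windows), hypoxia (ACGTG, 19.3%) and metal response sites (TGCGCNC or TGCACNC, 14.1% and 12.2%). GAANNTTC was found for Aco1, ACGTG for Tfrc and Ncoa4, TGCGCNC for Tfrc, Ncoa4 and Aco1, and TGCACNC for Tf. The remaining 2 NRF2 genes with a match, Nfe2l2 and Gsta1, have it after the start and are not shown. A match is a run of letters and not a measured binding site.

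The table gives estimated counts per gene, with totals of 19085626 in siSCR and 18130817 in siHsc70. Levels between the libraries are compared as CPM (counts on a common library total, after scaling with TMM factors), and the 13518 genes whose mean reached 1 CPM were called measured. The targeted gene Hspa8 was at 1399 CPM with siSCR and 507 CPM with siHsc70. Of all measured genes, 2.29% were at least 2-fold higher in siHsc70 and 5.14% at least 2-fold lower, where 2-fold means a difference of 1 in log2(CPM + 1). Markers of the labelled cell type were present: 14 oligodendrocyte genes summed to 8768 CPM with siSCR and 1626 CPM with siHsc70, and 11 of the 13 measured were at least 2-fold lower. Among 10 OPC markers 8 were at least 2-fold lower, with sums of 4296 and 2132 CPM. Astrocyte markers were also abundant, at 3786 and 3257 CPM over 8 genes. In bulk RNA, fewer cells of a type and less RNA per cell cannot be told apart.

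Slc40a1, Hmox1, Fth1 and Ftl1 stood well above their siSCR level in the siHsc70 library. The other 6 differed by less than 0.3 on the log2 scale. Slc40a1 and Hmox1 passed the 2-fold rule, which makes 2 of 10 higher against 2.29% of all measured genes, and 0 of 10 were at least 2-fold lower against 5.14%. With a 1.5-fold rule there were 4 of 10 higher, against 9.65% of measured genes. With the deposited TPM the 2-fold rule left 1 of 10 higher, Slc40a1, against 1.54%. The median of the 10 was 0.11, and that of all measured genes was -0.0034. On the TPM scale the former was -0.030 and the latter -0.13, so the sign of the median of the 10 depends on the scaling. Fth1 lay just short of the 2-fold rule at 0.99, and Hmox1 just past it at 1.08.

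**Figure D1:**
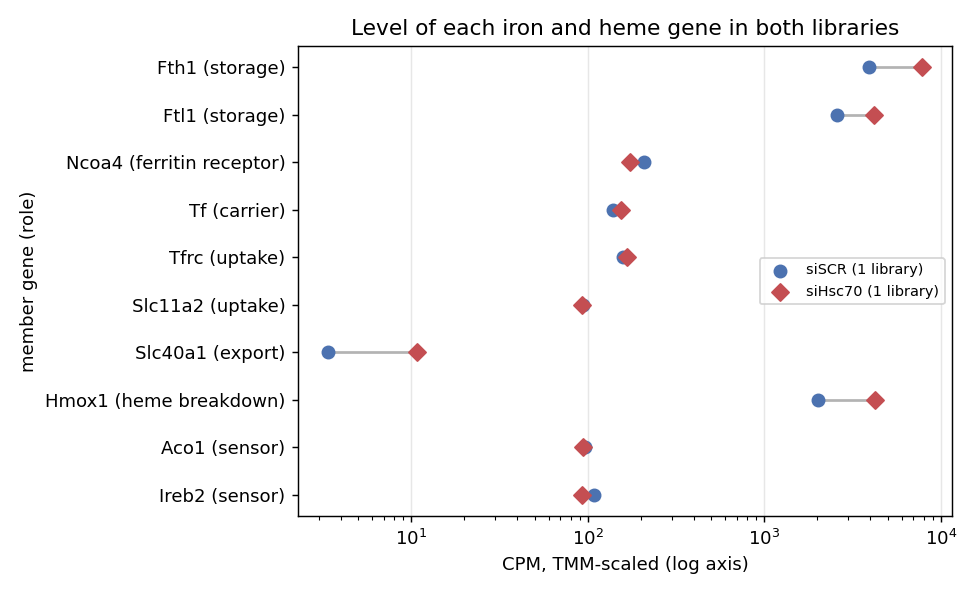
Level of the 10 iron and heme genes in the siSCR library (blue circles) and the siHsc70 library (red diamonds), in TMM-scaled CPM on a log axis, 1 library each. The points of Fth1, Ftl1, Hmox1 and Slc40a1 lie apart, and those of the other 6 genes nearly coincide.

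The ferritin genes were the most abundant of the group by TPM, while by CPM Hmox1 was slightly above Ftl1 in siHsc70. Fth1 encodes the ferritin heavy chain, which oxidises iron so that it can be laid down in the shell. Its estimated count was 75889 in siSCR and 141046 in siHsc70, or 3944 and 7843 CPM, a 1.99-fold higher level in siHsc70 (95% counting interval 1.97 to 2.01). On the scale of TPM, which is per length and allows genes to be compared within a library, Fth1 ranked 1st of all genes in both libraries, at 10628 TPM in siSCR and 19167 TPM in siHsc70. By counts it moved from rank 5 to rank 1, and from 0.398% to 0.778% of all counts.

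Ftl1 encodes the ferritin light chain, which promotes the iron core. It was at 2574 CPM with siSCR and 4192 CPM with siHsc70, 1.63-fold higher (1.61 to 1.65). Its TPM was 6254 in siSCR (rank 4) and 9236 in siHsc70 (rank 3). The heavy chain transcript therefore exceeded the light chain transcript in both libraries, with a ratio of TPM of 1.70 in siSCR and 2.08 in siHsc70. Transcripts of the ferritin chains and Hmox1 together took 1.97% of the TPM of the siSCR library and 3.38% of that of siHsc70.

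Both ferritin genes have processed copies in the rat genome, and their estimated counts are not whole numbers (Ftl1 in siSCR only), so reads may have been divided among copies. One row named Fth1-ps5 had estimated counts of 8705 in siSCR and 16179 in siHsc70. With it added, Fth1 was 1.99-fold higher (1.97 to 2.01), as without it. A row for LOC100360087, for which RefSeq lists the synonym Ftl1, had 2438 and 2156 counts, and with it added Ftl1 was 1.60-fold higher (1.58 to 1.61).

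Ncoa4 encodes the receptor that brings ferritin to the lysosome for breakdown. It went the other way from the ferritin genes, at 208 CPM with siSCR and 174 CPM with siHsc70, 1.19-fold lower (1.14 to 1.25). The counting interval leaves out 1, while the size is far from 2-fold. Tax1bp1, an adaptor of the same lysosomal route, was at 168 and 202 CPM, and Herc2, whose ligase product targets NCOA4, at 141 and 123 CPM; both were named after their values were seen.

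Uptake genes stayed close to their siSCR levels. Tf, the transferrin gene, which oligodendrocytes of the brain are known to transcribe, was at 139 CPM with siSCR and 154 CPM with siHsc70, 1.11-fold higher (1.05 to 1.17). On the TPM scale the values were 131 in both libraries. Beside this small difference of Tf, 11 of the 13 measured oligodendrocyte markers were at least 2-fold lower. The early differentiation gene Enpp6 was the furthest from 0 of these, 9.28-fold lower in siHsc70. The other markers, Mog and Aspa, had a ratio of 0.986 (0.804 to 1.21) and a 1.74-fold lower level, and were named after their values were seen.

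Tfrc, the transferrin receptor gene, was at 159 CPM with siSCR and 168 CPM with siHsc70, a ratio of 1.05 with a counting interval, 1.00 to 1.11, that ends at the value of no difference. Slc11a2, encoding the transporter DMT1, was at 94.4 CPM with siSCR and 93.5 CPM with siHsc70, with a ratio of 0.99 (0.926 to 1.06). Neither gene showed a difference of size. With the deposited TPM Tfrc was at 70.6 and 67.4, a log2 difference of -0.067, so that the sign of its small difference depends on the scaling. The same holds for Slc11a2, at -0.015 with TMM factors and 0.047 with upper-quartile factors.

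Slc40a1, encoding ferroportin, the known exporter of iron from cells, had the lowest level and the highest ratio of the 10. Its estimated count was 65.3 in siSCR and 194 in siHsc70, or 3.38 and 10.8 CPM, 3.19-fold higher (2.40 to 4.30). The interval is wide because the counts are low, and the counts of Slc40a1 and Slc11a2, like those of ferritin, are not whole numbers. On the log2(CPM + 1) scale the difference was 1.43, and 0.444% of measured genes had a higher one. Even so, Slc40a1 stayed far below the importer gene: the TPM of Slc11a2 was 21.0 times that of Slc40a1 in siSCR and 6.52 times in siHsc70. In GRCr8 its RefSeq span overlaps that of Asnsd1, which was at 85.0 CPM with siSCR and 103 CPM with siHsc70. As the strand setting of the counting is not given in the sources used here, reads of the overlap cannot be assigned, and the part of Asnsd1 in the value of Slc40a1 was not tested.

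Hmox1, encoding the inducible heme oxygenase, which is also known as a heat shock protein, was at 2005 CPM with siSCR and 4247 CPM with siHsc70, 2.12-fold higher (2.09 to 2.14). Its counts, 38577 and 76376, put it at rank 18 of all genes in siSCR and rank 7 in siHsc70. It was thus among the most abundant transcripts of the control library as well. The constitutive isoenzyme gene Hmox2 was at 41.6 CPM with siSCR and 40.0 CPM with siHsc70, with a ratio of 0.96 (0.867 to 1.06). With the deposited TPM the difference of Hmox1 was 0.94, which is short of the 2-fold rule, on a scale where the median of all genes was -0.13.

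The sensor genes differed little. Aco1 encodes iron regulatory protein 1, which is a cytosolic aconitase when it holds an iron-sulfur cluster. It was at 96.8 CPM with siSCR and 94.4 CPM with siHsc70, with a ratio of 0.976 (0.913 to 1.04), and its log2 difference was 0.027 with upper-quartile factors. Ireb2 encodes iron regulatory protein 2, which is removed by the ubiquitin ligase receptor FBXL5 when iron is plentiful. It was at 109 CPM with siSCR and 92.5 CPM with siHsc70, 1.18-fold lower (1.10 to 1.26). Fbxl5 itself was at 52.3 and 67.8 CPM, 1.30-fold higher (1.19 to 1.41).

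**Figure D2:**
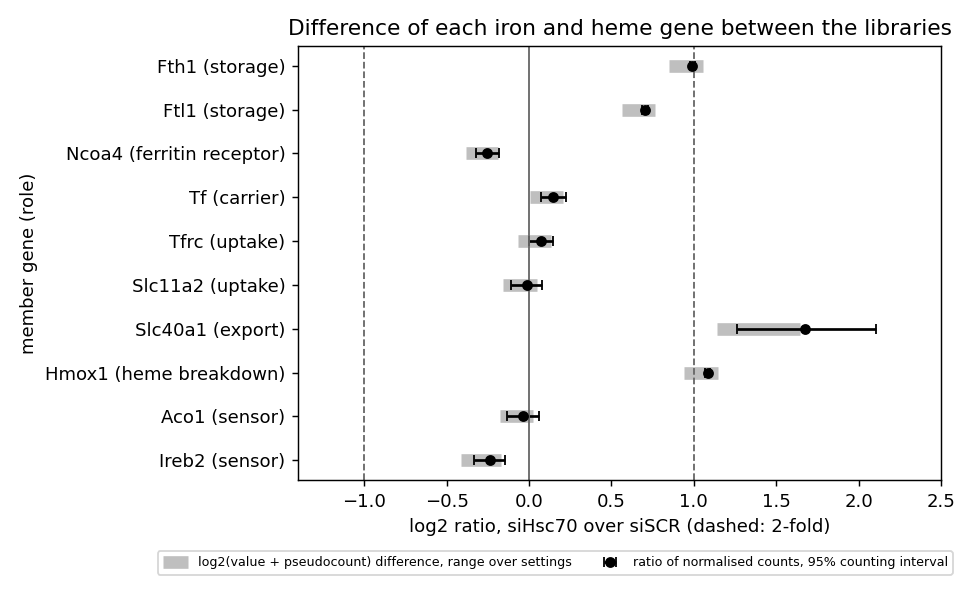
Log2 ratio of siHsc70 over siSCR for each of the 10 genes. Points with bars are ratios of normalised counts with 95% counting intervals, grey bands are the range of the log2(value + pseudocount) difference over 11 settings, and dashed lines mark 2-fold. Slc40a1, Hmox1, Fth1 and Ftl1 lie right of 0 in every band, Ncoa4 and Ireb2 left of it, and the band of Slc40a1 lies below its point because the pseudocount shrinks the difference of a low gene.

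Ordered by TPM, which is per length, the 10 genes had the same order in both libraries: Fth1, Ftl1, Hmox1, Tf, Ncoa4, Tfrc, Aco1, Slc11a2, Ireb2 and Slc40a1. With 1 library per group there is no spread to set neighbours apart. Tf and Ncoa4 were side by side in siSCR at 131 and 129 TPM and apart in siHsc70 at 131 and 98.8 TPM. Aco1 and Slc11a2 were neighbours at 60.4 and 56.9 TPM in siSCR and at 53.4 and 51.0 TPM in siHsc70. A wide gap lay between Hmox1, at 2809 and 5397 TPM, and the rest, of which the highest was at 131 TPM.

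Other genes of iron handling, from a list of 41, were mostly near their siSCR level. Of 30 measured, 1 was at least 2-fold higher and 0 at least 2-fold lower, and the median was 0.086 (-0.061 with the deposited TPM). That gene was Hephl1, a paralogue of the ferroxidase hephaestin, at 12.7 CPM with siSCR and 26.8 CPM with siHsc70, 2.11-fold higher (1.81 to 2.48). The ferroxidases that work with ferroportin differed in direction: Cp, encoding ceruloplasmin, was at 174 and 111 CPM, 1.57-fold lower (1.48 to 1.66), and Heph was higher. Heph was at 1.56 and 3.45 CPM, 2.21-fold higher (1.41 to 3.54), but short of the 2-fold rule on the log2(CPM + 1) scale. Cybrd1, a ferrireductase gene, was 1.75-fold higher (1.63 to 1.89; 60.0 against 105 CPM).

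Further members of that list had ratios near 1. The zinc and iron importer gene Slc39a14 was at 42.8 CPM with siSCR and 41.9 CPM with siHsc70, and the ferrireductase gene Steap3 at 3.90 and 4.23 CPM. The iron chaperone genes Pcbp1 and Pcbp2 had ratios of 0.99 (0.953 to 1.03) and 0.983 (0.951 to 1.02).

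Genes that make and move heme gave a mixed picture. Of 24 measured from a list of 26, 0 passed the 2-fold rule in either direction, against 2.29% upward and 5.14% downward of all measured genes. The median was 0.11 (-0.012 with the deposited TPM). Furthest from 0 on the log2(CPM + 1) scale was Blvrb, encoding biliverdin reductase B, at 50.4 CPM with siSCR and 95.3 CPM with siHsc70, 1.89-fold higher (1.75 to 2.05). Blvra, whose product reduces the biliverdin that heme oxygenase makes, was at 18.2 and 19.6 CPM. Slc48a1, a heme transporter gene, was at 223 and 416 CPM. Flvcr1, encoding a transporter linked to heme export, was at 2.96 and 1.28 CPM, 2.32-fold lower (1.40 to 3.94). Flvcr2 was 1.99-fold lower (1.29 to 3.13). These low genes had larger folds than Blvrb and fell short of the 2-fold rule because of the pseudocount. Slc48a1, Flvcr1 and Flvcr2 were named after their values were seen. Bach1, encoding a heme-sensing repressor of Hmox1 and the ferritin genes, was 1.56-fold lower (1.32 to 1.84; 19.5 against 12.6 CPM).

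Iron-sulfur cluster assembly, the other main use of cellular iron, showed small differences. Of 28 measured genes 20 lay above 0, against 49.7% of all measured genes. The 2-fold rule was passed by 0 in either direction, against 2.29% upward and 5.14% downward. The median was 0.21 (0.077 with the deposited TPM). Nfs1, the cysteine desulfurase gene, was furthest from 0, at 51.0 and 81.0 CPM, 1.59-fold higher (1.46 to 1.72). The HSP70-type chaperone gene of this pathway, Hspa9, and its J-domain partner Hscb were 1.39-fold (1.35 to 1.42) and 1.52-fold (1.30 to 1.79) higher.

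Known NRF2 genes other than the 10 were higher as a list. Of 22 measured, 21 lay above 0 and 16 were at least 1.5-fold higher, against 49.7% and 9.65% of all measured genes. The 2-fold rule was passed by 2 upward and 1 downward, against 2.29% and 5.14%. The median was 0.84, beside -0.0034 over all measured genes (0.70 beside -0.13 with the deposited TPM). Nqo1, a quinone reductase gene, was at 854 CPM with siSCR and 2112 CPM with siHsc70, 2.47-fold higher (2.43 to 2.52). Slc7a11, a cystine transporter gene, was at 677 and 1528 CPM, 2.26-fold higher (2.21 to 2.30).

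The 5 NRF2 genes whose promoter sites are printed above were also higher without reaching 2-fold. Gclm, encoding a subunit of the enzyme that starts glutathione synthesis, was at 140 CPM with siSCR and 267 CPM with siHsc70. Gstp1, a glutathione transferase gene, was at 1209 and 2283 CPM. Me1, Prdx1 and Txnrd1, encoding malic enzyme, a peroxiredoxin and a thioredoxin reductase, had ratios of 1.76, 1.60 and 1.46. These 5 were named because their promoter sequence is shown. Ncoa4, which has the letters too, was on the lower side. Of the NRF2 genes with the letters after the start, Nfe2l2 was higher and Gsta1 lower, with values given below. The windows of Nqo1 and Slc7a11, which had higher ratios than these 5, did not hold the letters. Whether the letters bear on the differences was not tested.

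Transcripts of the regulator itself, Nfe2l2, were at 204 CPM with siSCR and 381 CPM with siHsc70, 1.87-fold higher (1.80 to 1.94). Keap1, encoding its inhibitor, was 1.19-fold higher (1.10 to 1.28). The gene on the lower side was Gsta1, with a count of 168 in siSCR and 0 in siHsc70, at least 52.3-fold lower against a limit of 3 counts in siHsc70. Its counting interval, which also takes in the error of the siSCR count, has its lower end at 42.1-fold. It belongs to a family of similar genes among which reads can be divided, so this fold is uncertain.

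**Figure D3:**
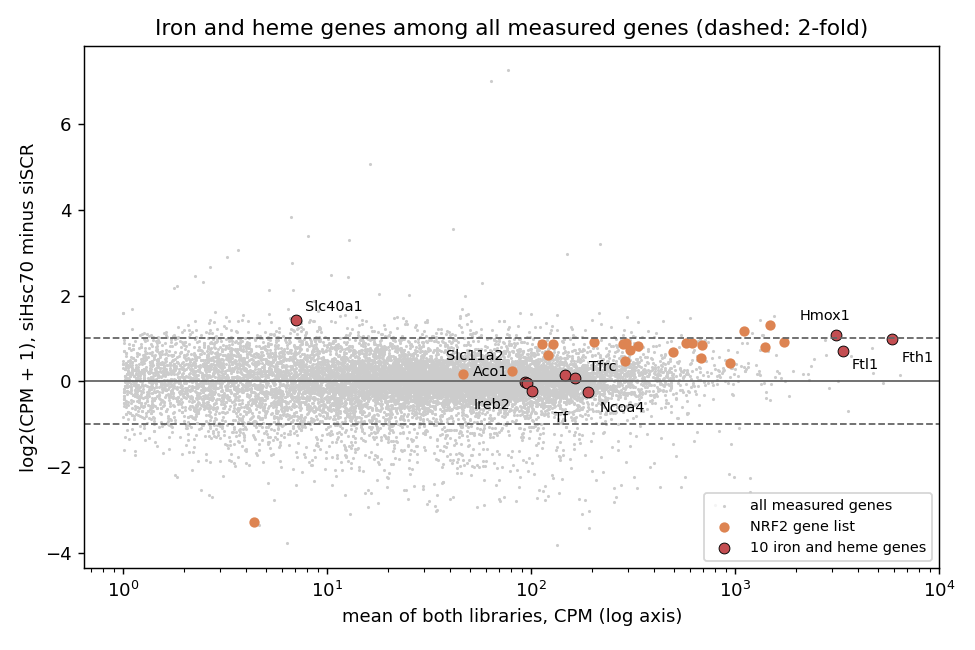
Log2(CPM + 1) difference, siHsc70 minus siSCR, against the mean of both libraries in CPM (log axis) for all 13518 measured genes (grey), the NRF2 list (orange) and the 10 iron and heme genes (red, labelled). Fth1, Ftl1 and Hmox1 lie at the far right near or below the 2-fold line, and Slc40a1 lies above it at a low level.

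Among the 64 genes whose mean reached 1000 CPM, to which Fth1, Ftl1 and Hmox1 belong, 8 were at least 2-fold higher in siHsc70. At least 2-fold lower were 3 of the 64. Of all measured genes, 2.29% were at least 2-fold higher and 5.14% lower. The class is set by the mean of both libraries, so a gene can enter it through the library where it is high. Nqo1 and Slc7a11, both among the 8, were below 1000 CPM with siSCR (854 and 677 CPM), and Hmox1 is among the 8 too. The larger upward share of this class therefore cannot be read as a trait of abundant genes. The 2.29% set beside the 10 genes above is over genes of all levels. Ordered from the most positive difference down, Hmox1 was the 7th and Fth1 the 9th in that class, and 17 genes of it, Ftl1 included, had a difference at or above that of Ftl1. Hsp90aa1 (1.52) and Scg2 (1.43) were the 1st and 2nd in that order, and Nqo1 and Slc7a11 the 3rd and 4th. Slc20a1, Hmga1, Nes and Hsp90ab1 were the 5th, 6th, 8th and 10th. Apart from Nqo1 and Slc7a11, the genes of these 2 sentences were named after their values were seen.

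Genes acting on lipid peroxides, the damage that free iron promotes, went in both directions. Of 12 measured, 7 lay above 0 and 5 below. The 2-fold rule was passed by 1 gene upward, against 2.29% of all measured genes, and by 0 downward, and the median was 0.19 (0.049 with the deposited TPM). Alox5, a lipoxygenase gene, was at 3.17 and 7.78 CPM, 2.46-fold higher (1.81 to 3.37). Gpx4, whose product reduces lipid peroxides, was at 218 CPM with siSCR and 320 CPM with siHsc70. Acsl4, whose product feeds polyunsaturated fatty acids into membrane lipids, was 1.40-fold lower (1.29 to 1.52), and Dhodh, encoding a mitochondrial enzyme of pyrimidine synthesis, 1.42-fold lower (1.11 to 1.83). On the higher side, Sod1 was 1.94-fold (1.86 to 2.04), Aifm2 1.82-fold (1.58 to 2.11) and Slc3a2 1.60-fold (1.57 to 1.63) higher. Sod1, Aifm2, Slc3a2, Gpx4, Acsl4 and Dhodh were named after their values were seen.

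**Figure D4:**
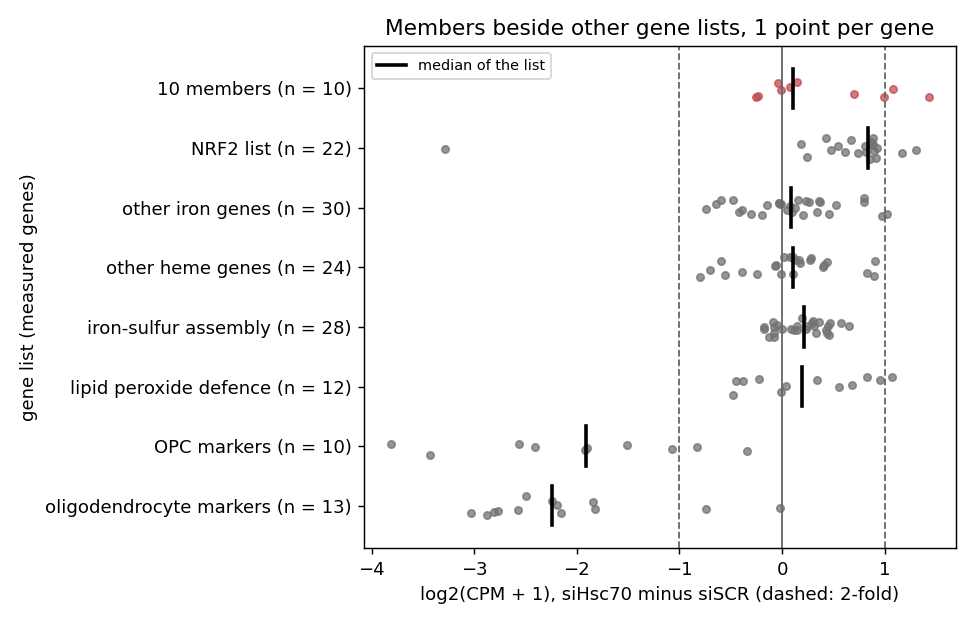
Log2(CPM + 1) difference, siHsc70 minus siSCR, for every measured gene of 8 lists, 1 point per gene, with the median of each list as a black line and 2-fold as dashed lines. The NRF2 list centres at 0.84 with 1 gene far to the left, the other iron and heme lists centre near 0, and the OPC and oligodendrocyte markers lie to the left.

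Ferritin, Hmox1 and Slc40a1 are also abundant in macrophages, so microglial and macrophage markers were read in the same libraries. Of 14 genes, 9 were in the table and 3 were measured, namely Cd68, Tmem119 and Cd14, and the whole list summed to 10.1 CPM with siSCR and 15.6 CPM with siHsc70. Aif1, C1qc and Tyrobp had a count of 0 in siSCR and 1 in siHsc70. Cd68 was at 1.66 and 4.34 CPM, and all 3 measured genes lay above 0. Csf1r, P2ry12 and Ptprc, too low to be measured, had counts of 8, 15 and 4 in siSCR. Their counts in siHsc70 were 2, 5 and 2. None of 9 erythroid genes was measured, with sums of 0.780 and 0.778 CPM over the 3 in the table. Fibroblast and mural markers summed to 43.3 and 107 CPM, of which Col1a1 alone made up 24.3 and 73.8 CPM. Of the 5 measured, 4 lay above 0, with Col1a1 3.04-fold (2.74 to 3.39) and Postn 2.43-fold (1.74 to 3.43) higher. Col3a1 lay below 0, at 2.29 and 1.83 CPM. Among those not measured, Dcn had counts of 9 in siSCR and 1 in siHsc70, Lum 2 and 0, and Rgs5 1 and 2. Endothelial markers summed to 12 and 11.6 CPM. Of the 4 measured, 2 lay above 0, Esam at 2.89-fold (1.36 to 6.69) and Egfl7 at 1.87-fold (1.30 to 2.73) higher, and 2 below, of which Kdr was at 2.29 and 0.278 CPM. Neuronal markers summed to 809 and 570 CPM. Of 10, 6 lay below 0, with Dcx and Elavl3 5.32-fold and 2.90-fold lower, and 4 above, with Snap25 and Stmn2 2.00-fold and 1.71-fold higher. Of the 8 astrocyte markers 5 lay above 0, with Aldh1l1 and S100b 1.61-fold and 1.52-fold higher, while Aqp4 and Gfap were 4.13-fold and 2.12-fold lower. The median of the astrocyte list was 0.19, and -0.0084 with the deposited TPM. Csf1r, P2ry12, Ptprc, Col3a1, Dcn, Lum, Rgs5, Esam, Egfl7, Snap25, Stmn2, Aldh1l1 and S100b were named after their values were seen. The part of these cell types in the differences of the 10 genes was not tested.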

How the data were processed

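One table of the series was used. Its 6 value columns hold estimated counts, FPKM and TPM for both libraries, per the file headers. The deposited estimated counts are unnormalised and need not be whole (26.5% and 26.7% are not). The deposited FPKM and TPM values are per length and library, per the file headers. The sources used here do not name an aligner, counter, annotation or strandedness. A mouse build, mm39, appears in the submitters' processing notes, although 16783 gene IDs matched rat RefSeq genes (GRCr8), so no coordinates are given for the counts.

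Counts were rounded and scaled with TMM factors (1.01 for siSCR, 0.992 for siHsc70; edgeR 4.0.16, R 4.3.3). Differences are log2(CPM + 1), siHsc70 minus siSCR, which understates low genes, and a fold is the ratio of normalised counts with no pseudocount. Intervals (95%, Clopper-Pearson) and the limit of 3 counts (0.156 and 0.167 CPM) cover counting error only. The procedure was tested on simulated counts that held planted changes and counting error only. That test does not cover the spread between cultures or reads divided among genes.

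The 10 genes and the 13 other lists were chosen with earlier results of these data known. Named genes are the 10, 18 partner genes, and per list up to 2 higher and 2 lower genes past 2-fold, or the furthest from 0; others are said to be named after their values were seen. Some genes of these lists are not reported here. In all, 10 alternatives were planned and 1 added.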

Additional observations from a re-analysis of the deposited data

How the results depend on the processing

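Over 11 settings, the usual one included, the log2 difference stayed above 0 for Slc40a1 (1.14 to 1.65), Hmox1 (0.94 to 1.15), Fth1 (0.85 to 1.05), Ftl1 (0.56 to 0.77) and Tf (0.0062 to 0.21), and below 0 for Ireb2 (-0.41 to -0.17) and Ncoa4 (-0.39 to -0.19). Tfrc (-0.067 to 0.14), Slc11a2 (-0.16 to 0.047) and Aco1 (-0.17 to 0.027) changed sign. Slc40a1 passed the 2-fold rule in 11 settings, Hmox1 in 10 (not with the deposited TPM) and Fth1 in 1 (upper-quartile scaling). The number of the 10 genes at least 2-fold higher was 1 with the deposited TPM, and 4 with a 1.5-fold rule, against 2. Measured genes at least 2-fold higher numbered 518 when the pseudocount was 0.1 and 203 when FPKM was used, against 310, and a 1.5-fold rule gave 1304 higher and 1626 lower genes, against 310 and 695. With the deposited TPM, where the median gene was at -0.13, the median of the other iron genes was -0.061, against 0.086. The median of the NRF2 list was 0.90 with upper-quartile scaling, and 0.84 with Gsta1 set at its limit of 3 counts. Totals computed without the 10 genes were added after seeing the data. The cause of these shifts was not tested. Depth limits Slc40a1 most, as its interval shows. No paired analysis was possible because each group is 1 library.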
